A study of Rattus norvegicus with 9 samples.

Results

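Cystatins are proteins that inhibit papain-like cysteine proteases such as the lysosomal cathepsins, by filling the active-site cleft of the enzyme. Stefins such as cystatin B act inside the cell, and cystatins of the C type are secreted. In the testis the secreted cystatin C is a known product of Sertoli cells, which line the seminiferous tubules and support the germ cells, and several relatives are known mainly from the reproductive tract, among them some that lack the residues needed for protease inhibition. Expression of 7 cystatin genes was followed here over 3 ages: Cst3 (cystatin C), Cst9l, Cst12, Cst8 and Cst11 of the reproductive tract group, Cst6 (cystatin E/M) and Cstb (cystatin B). They were chosen by name, with earlier results of these data known. Of the 41012 probes on the array, 8 belonged to them. The array files name 5 of the genes as above (6 probes). Cst9l stands in the files under the older symbol Cst9, and Cst12 under LOC266776 with the description cystatin TE-1, and both were matched through RefSeq.

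Sertoli cell cultures were made from rat testes at 5, 12 and 60 days of age, and each age was hybridised on 3 arrays. All cultures had been kept for 4 days in defined medium and were then exposed for 11 h to testosterone (1e-07 M) and oFSH (50 ng/ml), given as pulses, so no age had an untreated culture and the hormones were shared by all groups. RNA was labelled with Cy3 on oligo-dT and hybridised to one-colour rat arrays. Separate animals or pools are not named in the labels for the replicates of an age. The p-values therefore reflect array-to-array spread, which may be technical.

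Values below are log2 processed signals after subtraction of the log2 75th percentile of their own array, given in the order of replicates 1, 2 and 3, and fold changes are differences of their means ± SE from limma. Of the 7 genes, 6 were well above background often enough to be tested among 22397 genes (at least 2 of the 3 arrays of 1 age), and a gene was called at an adjusted p under 0.05. The 75th percentile lay between 149.0 and 435.4 intensity units, 49.1% to 63.0% of probes were well above background, and the number of arrays limits the precision. All 17 Sertoli markers were tested. Their summed level was 68.3 to 78.2 at 5 days, 366 to 406 at 12 days and 365 to 398 at 60 days, in units of the 75th percentile. Markers of other cells differed with age too. The summed level of 11 spermatocyte markers was 0.475 to 0.703 at 5 days, 13.5 to 18.3 at 12 days and 88.2 to 167 at 60 days. That of 13 spermatid markers was 3.9 to 6.21, 4.78 to 6.65 and 28.7 to 45.9 at the same ages. At 5 and 12 days the spermatid sums came largely from Odf2 (mean log2 level 2.07 and 2.44). The median log2 level of the 13 was -6.16 to -5.47 at 5 days, -5.34 to -4.60 at 12 days and -1.02 to -0.18 at 60 days. For the spermatocyte markers it was -6.18 to -6.05 at 5 days, so the sums do not rank the cell types. In such cultures fewer cells of a type and less RNA per cell cannot be told apart.

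Of the genes tested, 12.5% were called at 12 against 5 days, 25.3% at 60 against 12 days and 35.4% at 60 against 5 days. Of the 6 cystatins tested, 3 rose and 0 fell at 12 against 5 days (all genes: 6.16% rose and 6.33% fell). At 60 against 12 days 2 rose and 1 fell (all genes: 12.3% and 13.1%), and at 60 against 5 days 5 rose and 1 fell (all genes: 17.3% and 18.1%). Over the 3 ages the F-test called 4 of the 6, against 36.7% of all genes. The median log2 fold change of the 6 was 1.66, 0.51 and 1.36 in these comparisons, and that of all genes 0.05, -0.16 and -0.09. The comparisons share arrays, and Cst11 did not pass the filter, so these counts do not cover every member. Cst6, 1 of the 5 that rose at 60 against 5 days, passed the filter through its 60-day arrays alone. Its place in that count is therefore in part due to the filter.

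The 60-base probe sequences of Cst12, Cst8, Cst6 and Cstb are shown because the values below were read through them. They are written 5′ to 3′ as the array files give them, and capitals mark the longest run of bases that the probe shares with a probe of another cystatin gene. Matches of a probe to the transcripts of the relatives were not tested. That of Cstb is printed up to its first in-frame stop codon.
Cst12: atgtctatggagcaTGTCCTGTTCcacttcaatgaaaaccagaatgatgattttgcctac
Cst8: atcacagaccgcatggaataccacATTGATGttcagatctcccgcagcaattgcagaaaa
Cst6: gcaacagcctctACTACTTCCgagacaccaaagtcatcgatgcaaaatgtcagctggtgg
Cstb: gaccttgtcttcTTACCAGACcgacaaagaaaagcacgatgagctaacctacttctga
The runs are 10 bases for Cst12, 7 for Cst8, 9 for Cst6 and 9 for Cstb. In the rn4 build the Cst12 probe lay at chr3:137548194-137548253 on the plus strand, the Cst8 probe at chr3:137563292-137563351 on the plus strand and the Cstb probe at chr20:10576849-10576908 on the minus strand. The Cst6 probe lay at chr1:207991974-207992560 on the minus strand, a span longer than the probe. The files of replicate 3 give these positions, and exons and untranslated regions are not stated, since no annotation of that build was used.

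Cst9l rose in all 3 comparisons, and its mouse relative Cst9 (testatin) is known from the developing testis. Cst9l measured -2.53, -4.22 and -2.82 at 5 days, -0.96, -1.33 and -0.56 at 12 days, and 5.04, 4.59 and 4.98 at 60 days. The 3 ages did not overlap, and the 60-day arrays stood far above the rest, while the 5-day array of replicate 2 was not well above background. Cst9l rose by 5.82 ± 0.45 at 60 against 12 days (56.6-fold, limma adjusted p = 1.11e-05) and by 8.06 ± 0.45 at 60 against 5 days (267-fold, adjusted p = 7.94e-07). Its rise at 12 against 5 days was 2.24 ± 0.45 (adjusted p = 0.00814). That early call was lost without replicate 2 (1.91, adjusted p = 0.0649) or replicate 3 (2.23, adjusted p = 0.0703), with scaling to the spike-in controls (0.92, adjusted p = 0.402) and in a setting that combined normexp background correction, quantile normalization and the arrays of replicates 1 and 3 alone (0.52, adjusted p = 0.159). The 2 later calls held in all 21 alternatives, with values from 4.79 to 6.78 at 60 against 12 days and from 5.32 to 8.39 at 60 against 5 days. The Cst9l probe lay at chr3:137604505-137604564 (rn4, plus strand).

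Cst12, described in the array files as cystatin TE-1, rose at both steps. Its levels were -2.61, -4.00 and -3.45 at 5 days, -0.16, -0.26 and 0.46 at 12 days, and 3.86, 3.51 and 3.88 at 60 days. No array of one age reached the range of another, and the 5-day array of replicate 2 was again not well above background. Cst12 rose by 3.37 ± 0.40 at 12 against 5 days (10.3-fold, limma adjusted p = 0.000399), by 3.74 ± 0.40 at 60 against 12 days (13.3-fold, adjusted p = 7.85e-05) and by 7.10 ± 0.40 at 60 against 5 days (137-fold, adjusted p = 8.22e-07). The first of these calls was lost with the spike-in scale (2.05, adjusted p = 0.113) and in the normexp and quantile setting on replicates 1 and 3 (1.02, adjusted p = 0.0851). The other 2 held in all 21 alternatives, from 2.95 to 4.70 and from 3.97 to 7.47. Over the 9 arrays the levels of Cst12 and Cst9l had a Pearson r of 0.97, a description in which both genes share the arrays and the ages.

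The increases of Cst9l and Cst12 at 60 days stood beside those of the germ cell markers. At 60 against 12 days, 10 of 11 spermatocyte markers and 12 of 13 tested spermatid markers rose. Most of these spermatid markers and some spermatocyte markers passed the filter through the 60-day arrays alone, Smcp, Odf1 and Pgk2 among them. Their rise at 60 days was thus in part built into their being tested. At 12 against 5 days, 8 of 11 spermatocyte markers rose and 0 of 13 spermatid markers were called. Of 17 Sertoli markers, 13 rose and 0 fell at 12 against 5 days, and 5 rose and 2 fell at 60 against 12 days. With the spike-in scale, 0 of the 17 Sertoli markers and 6 of the 11 spermatocyte markers were called at 12 against 5 days, all 6 upward. The part of these cells in the cystatin results was not tested.

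Cst8, known as CRES (cystatin-related epididymal spermatogenic protein) and in mouse from epididymis and spermatids, peaked at the middle age. It measured -2.40, -2.59 and -3.04 at 5 days, -0.55, -0.37 and -0.43 at 12 days, and -1.76, -1.53 and -1.82 at 60 days. All 9 values were well above background, and the 3 ages did not overlap. Cst8 rose by 2.23 ± 0.31 at 12 against 5 days (4.68-fold, limma adjusted p = 0.000885). It fell by 1.25 at 60 against 12 days (SE 0.31, adjusted p = 0.0117), with the 60-day array lower on each slide (by -1.20, -1.17 and -1.38). At 60 against 5 days it was higher by 0.98 ± 0.31 (adjusted p = 0.0284).

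The calls on Cst8 were not equally stable. The rise at 12 against 5 days was lost with the spike-in scale (0.91, adjusted p = 0.408) and in the normexp and quantile setting on replicates 1 and 3 (0.76, adjusted p = 0.0501). The fall at 60 against 12 days was lost in both as well (-0.29, adjusted p = 0.875, and -0.47, adjusted p = 0.0743), and without replicate 1 (adjusted p = 0.051), 2 (0.126) or 3 (0.0899). The difference at 60 against 5 days was lost in 11 of 22 alternatives. Among them were the fits that dropped single arrays, namely replicate 2 (adjusted p = 0.0687) or 3 (0.099) at 5 days and replicate 2 (0.0985) or 3 (0.0586) at 60 days, or any replicate number (0.0558 to 0.216).

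Cst8 and Cst11 are known to be made in the epididymis. Of 15 epididymal and duct markers on the array, 10 were not well above background on any of the 9 arrays, among them Lcn5, Lcn8, Lcn9, Adam7, Rnase9 and Rnase10. The 5 that were tested (Cldn4, Epcam, Krt7, Cdh1 and Krt19, genes of epithelial cells in general) all fell at 12 against 5 days, and 3 rose and 1 fell at 60 against 12 days. Their part in the Cst8 result was not tested. Cst11, a secreted epididymal cystatin with known antibacterial activity in human, was itself not well above background on any array. Its levels lay between -6.79 and -4.88, with the 60-day arrays the highest, and no fold change is given, since none was well above background. The Cst11 probe lay at chr3:137524418-137524477 (rn4, minus strand).

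Cst3 encodes cystatin C, the widely expressed secreted inhibitor of cysteine cathepsins. The Cst3 probe with the higher mean measured 5.54, 5.00 and 5.22 at 5 days, 5.75, 5.51 and 6.28 at 12 days, and 6.19, 6.16 and 6.31 at 60 days. The 60-day arrays stood above all 5-day arrays, and the 12-day arrays overlapped with both. Cst3 was not called at 12 against 5 days (0.59 ± 0.32, 95% interval -0.12 to 1.31, limma adjusted p = 0.313) or at 60 against 12 days (0.37 ± 0.32, 95% interval -0.34 to 1.09, adjusted p = 0.45). At 60 against 5 days it rose by 0.97 ± 0.32 (1.96-fold, adjusted p = 0.0384), while the F-test over the 3 ages did not call it (adjusted p = 0.0881). With quantile normalization that test did (adjusted p = 0.0131), and with replicate number as a block its adjusted p was 0.0506.

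Both Cst3 probes gave much the same pattern, with 40 bases shared between them and a Pearson r of 0.97 over 9 arrays. In a fit of every probe the second probe was higher by 1.00 ± 0.37 at 60 against 5 days (adjusted p = 0.0565), against 0.97 ± 0.33 for the first (adjusted p = 0.0413). They lay at chr3:137651064-137651123 and chr3:137651084-137651143 (rn4, minus strand). The call at 60 against 5 days was lost in 12 of 22 alternatives. These included the fits that dropped replicate 2 (adjusted p = 0.135) or 3 (0.0839) at 5 days, replicate 1 at 12 days (0.0534), replicate 1 (0.0652), 2 (0.0858) or 3 (0.103) at 60 days, or any replicate number (0.0822 to 0.244), and the spike-in scale (0.735). On that scale the uncalled difference at 12 against 5 days turned to -0.73.

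Cstb encodes cystatin B, an inhibitor of cathepsins inside the cell, and loss of its function in human causes a progressive myoclonus epilepsy. Its levels were 5.17, 4.90 and 4.88 at 5 days, 4.20, 4.10 and 4.56 at 12 days, and 3.89, 4.12 and 3.93 at 60 days. The 5-day arrays stood above all others, and the 12-day and 60-day arrays overlapped. Cstb was the only one of the 6 that fell at 60 against 5 days, where it fell by 1.01 (SE 0.30, 2.01-fold lower, limma adjusted p = 0.0216). Neither the difference at 12 against 5 days (-0.70 ± 0.30, 95% interval -1.35 to -0.04, adjusted p = 0.178) nor that at 60 against 12 days (-0.31 ± 0.30, 95% interval -0.96 to 0.35, adjusted p = 0.498) was called.

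The F-test over the 3 ages called Cstb too (adjusted p = 0.0485), and did not when all probes entered the test (0.053), without the filter (0.105) or after any single array was dropped (0.0699 to 0.127), except the 12-day array of replicate 3 (0.0475). That call was also lost with quantile normalization (0.115), with the spike-in scale (0.166), in the normexp and quantile setting on replicates 1 and 3 (0.087) and without any replicate number (0.163 to 0.253). At 60 against 5 days 9 of 22 alternatives ended the call. They included the fits that dropped replicate 1 (adjusted p = 0.0605) or 2 (0.0559) at 5 days, replicate 3 at 60 days (0.0658) or any replicate number (0.0936 to 0.132), quantile normalization (0.0726) and the spike-in scale (0.331). With the spike-in scale the uncalled difference at 60 against 12 days turned to 0.65. Of 10 markers of peritubular and fibroblast cells tested, 7 fell at 60 against 5 days, with a summed level of 41.5 to 229 at 60 days, against 518 to 1019 at 5 days. One of them, Col3a1, was saturated on 3 arrays, and 4 of the 10 fell at 12 against 5 days. Of 12 macrophage markers, 7 fell and 2 rose at 60 against 5 days, with sums of 3.49 to 4.2 at 60 days, against 7.65 to 12.8 at 5 days. Their part in the Cstb result was not tested.

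Cst6 encodes cystatin E/M, an inhibitor of cathepsins and of legumain known best from skin, and was close to background. It measured -4.76, -3.75 and -5.90 at 5 days, -4.45, -3.63 and -3.06 at 12 days, and -3.30, -2.70 and -3.20 at 60 days. The probe passed the background criterion once at 5 days, on 1 array at 12 days and on 3 at 60 days, and the 12-day values overlapped with both other ages. Cst6 rose by a fitted 1.74 ± 0.54 at 60 against 5 days (limma adjusted p = 0.0284, with 2 of the 5-day values not well above background) and was not called at 12 against 5 days (1.09 ± 0.54, 95% interval -0.11 to 2.29, adjusted p = 0.257) or at 60 against 12 days (0.64 ± 0.54, 95% interval -0.56 to 1.84, adjusted p = 0.437). The F-test over the 3 ages did not call it (adjusted p = 0.0665) and did so when replicate number entered as a block (adjusted p = 0.039) or when the 5-day array of replicate 2 was dropped (0.0192). The call at 60 against 5 days was lost when replicate 1 (adjusted p = 0.0683) or 3 (0.0977) at 5 days or replicate 2 (0.0988) or 3 (0.0541) at 60 days was dropped, without all arrays of replicate 1 (0.106) or 3 (0.117), with the spike-in scale (0.326) and in the normexp and quantile setting on replicates 1 and 3 (0.381). On the spike-in scale the uncalled difference at 12 against 5 days was -0.23.

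**Figure D1:**
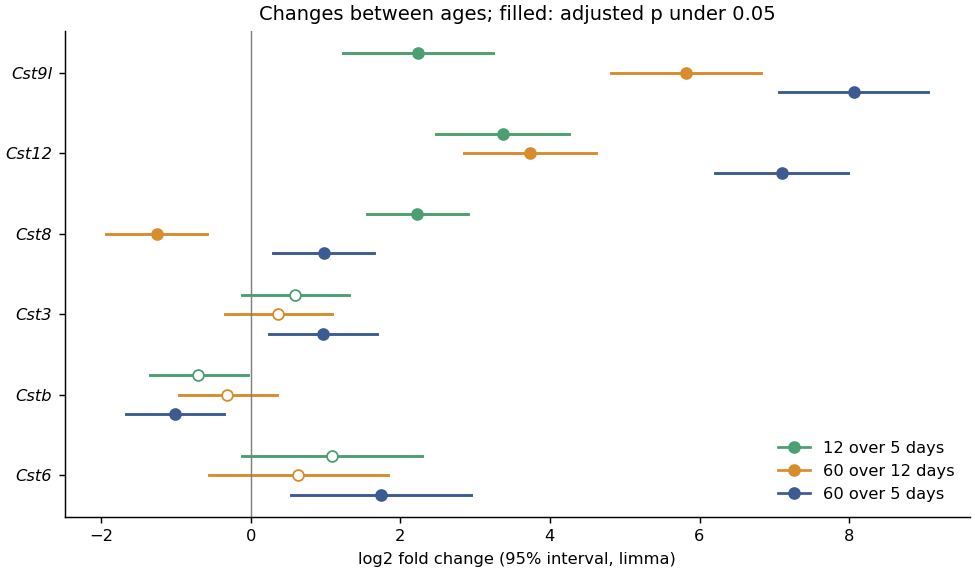
Fold changes of the 6 tested cystatin genes between ages (log2, with 95% intervals from limma), filled where the adjusted p was under 0.05. Cst9l and Cst12 have filled points in all 3 comparisons, Cst8 lies at -1.25 at 60 against 12 days, and Cstb is the one gene below zero in every comparison.

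A difference between 2 genes on the same array does not move with the scale of that array, so each cystatin was also set against Cst3, with no test. This shows unequal change between ages and not which gene is more abundant. For Cst9l minus Cst3 the log2 difference was -8.06, -9.22 and -8.04 at 5 days, -6.71, -6.84 and -6.84 at 12 days, and -1.15, -1.57 and -1.33 at 60 days. For Cst12 minus Cst3 it was -8.14, -9.00 and -8.67 at 5 days, -5.91, -5.77 and -5.82 at 12 days, and -2.33, -2.65 and -2.44 at 60 days. In both the ages stayed apart, each above the one before it.

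The same measure for Cstb was -0.36, -0.10 and -0.34 at 5 days, -1.55, -1.41 and -1.73 at 12 days, and -2.30, -2.04 and -2.39 at 60 days. Relative to Cst3, then, Cstb was lower at each later age with no overlap, although its own levels at 12 and 60 days overlapped. Both genes enter this measure. At 60 against 12 days Cst3 differed by 0.37 and Cstb by -0.31, neither of them called. For Cst8 the difference was -7.93, -7.60 and -8.26 at 5 days, -6.30, -5.87 and -6.72 at 12 days, and -7.95, -7.69 and -8.13 at 60 days. The 12-day arrays stood above all others, and the 5-day and 60-day arrays overlapped. In the main fit both genes were higher at 60 than at 5 days, Cst8 by 0.98 and Cst3 by 0.97. Cst6 minus Cst3 overlapped between ages.

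**Figure D2:**
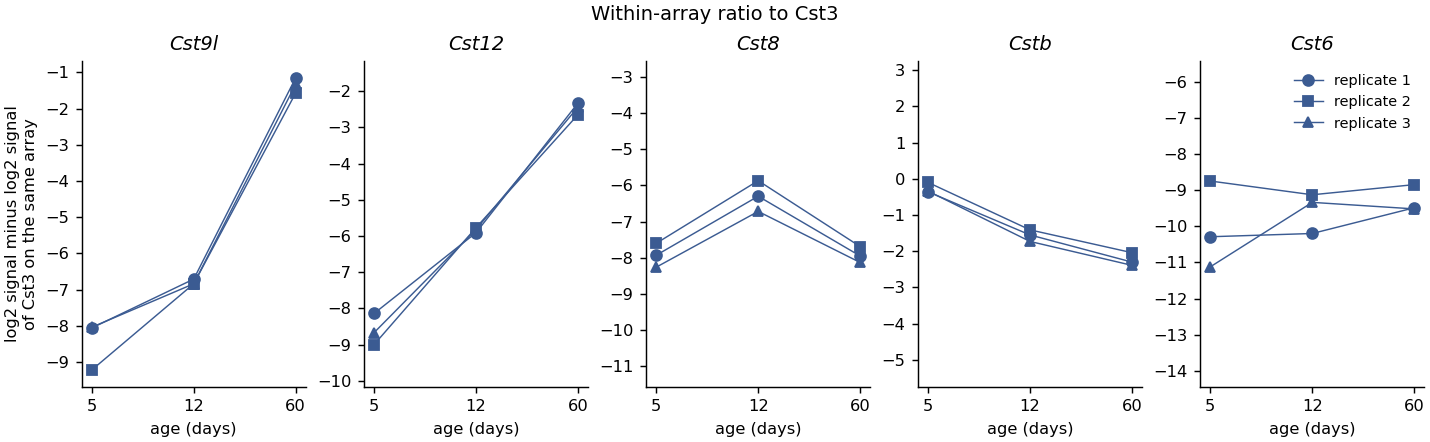
Log2 signal of 5 cystatin genes minus that of Cst3 on the same array, by age in days, with a line for each replicate number. All 3 lines rise at each age for Cst9l and Cst12, peak at 12 days for Cst8 and fall at each age for Cstb, whose values go down to -2.39 at 60 days.

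Cst11, Cst12, Cst8, Cst9l and Cst3 are neighbours on chromosome 3, in that order in the RefSeq annotation, while Cst6 is on chromosome 1 and Cstb on chromosome 20. Further cystatin genes in the same stretch are Cstl1 before Cst11, Cstdc1 just before Cst12, Cst13 between Cst8 and Cst9l, and Cstdc2 between Cst9l and Cst3. No probe was matched to Cst13 or Cstdc2, and Cstl1 was not well above background on any array. Cstdc1, described in the files as cystatin SC, was not well above background at 5 days and was so on every later array, with mean levels of -4.63 at 5 days, -1.53 at 12 days and 0.42 at 60 days (SD 0.30, 0.17 and 0.11, n = 3 each). It was at least 5.58-fold higher at 12 than at 5 days (limma adjusted p = 0.000142), at least 21.5-fold higher at 60 than at 5 days (adjusted p = 1.07e-06), and higher by 1.95 ± 0.30 at 60 against 12 days (adjusted p = 0.000823). Its call at 12 against 5 days was lost with the spike-in scale and in the normexp and quantile setting on replicates 1 and 3 (adjusted p up to 0.164).

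Along this stretch Cstdc1 and Cst12 were called upward in all 3 comparisons, Cst8 beside them fell at 60 against 12 days, Cst9l further on was called upward in all 3 again, and Cst3 at the end was called upward at 60 against 5 days alone, a call lost in 12 of 22 alternatives. Whether these profiles differ from each other was not tested.

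**Figure D3:**
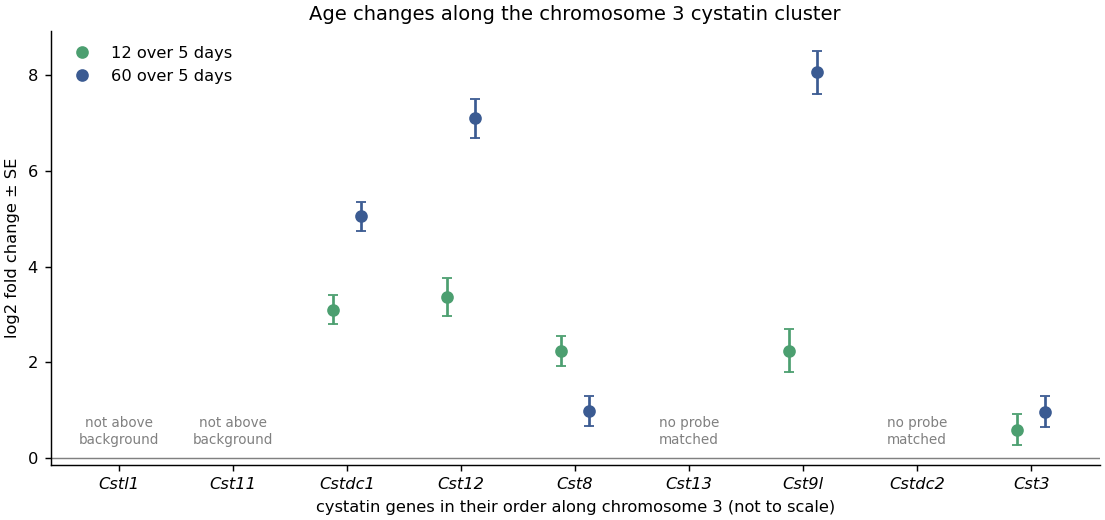
Log2 fold changes (± SE) at 12 against 5 days and at 60 against 5 days for cystatin genes in their order along chromosome 3, with distances not drawn to scale. The 60-day points of Cst12 (7.10) and Cst9l (8.06) stand high with Cst8 (0.98) between them, and those of Cstdc1 are fitted values of a gene not above background at 5 days.

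The stretch just upstream of the start site is shown for Cst12 and Cst8, neighbours whose signals went opposite ways at 60 against 12 days. Each has 250 bases from RefSeq (GRCr8), 5′ to 3′ on the strand of the gene, and capitals mark ACAAAG, the core recognised by SOX factors such as Sox9 of Sertoli cells.
Cst12 promoter: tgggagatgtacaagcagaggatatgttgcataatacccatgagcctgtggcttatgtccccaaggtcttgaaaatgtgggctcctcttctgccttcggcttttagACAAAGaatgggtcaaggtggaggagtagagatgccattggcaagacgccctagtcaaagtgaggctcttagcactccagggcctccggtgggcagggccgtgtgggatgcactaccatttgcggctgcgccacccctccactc
Cst8 promoter: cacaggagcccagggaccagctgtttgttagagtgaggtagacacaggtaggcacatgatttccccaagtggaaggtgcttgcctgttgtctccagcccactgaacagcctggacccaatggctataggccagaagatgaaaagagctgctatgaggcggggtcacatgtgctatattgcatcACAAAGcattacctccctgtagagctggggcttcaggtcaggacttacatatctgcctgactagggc
These lie at chr3:156687942-156688191 and chr3:156697526-156697775, both on the plus strand. The ACAAAG match (CTTTGT on the other strand was searched too) starts at -144 in Cst12 and at -67 in Cst8, and 16.3% of 33469 promoters of the same length hold one. It was found in neither of the Cst3 and Cstb promoters.

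Searches on both strands of these 4 promoters found no TATAAA (present in 12.9% of all promoters), no TGACG of the cyclic AMP response element (18.2%), no AGATAA of GATA factors (10.3%) and no AAGGTCA of SF-1 (3.99%). AGAACA, part of the androgen response element (17.5%), was found in Cst3 alone, at -242. No matches overlapped. CG dinucleotides numbered 6 in the Cst12 promoter, 1 in that of Cst8, 8 in that of Cst3 and 11 in that of Cstb, against a median of 5, and 7.83% of promoters had fewer than Cst8. A match is a run of letters in this window, and binding was not measured.

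Genes whose levels followed each cystatin most closely over the 9 arrays were sought among 12356 genes with a current symbol, with no test, since all share the arrays and the ages. For Cst9l these were Adcy10 (Pearson r 0.995), Catsper2 (0.994) and Thumpd3 (0.993), and 337 genes exceeded 0.95. For Cst12 they were Smpx (0.995), Drc3 (0.994) and Hspa4l (0.993), with 233 genes above 0.95. The closest to Cst8 were Edn1 (0.988), Rpl3l (0.986) and Aard (0.984), and 17 genes exceeded 0.95. Aard, one of the Sertoli markers, rose by 2.75 ± 0.29 at 12 against 5 days (limma adjusted p = 0.000193) and fell by 1.77 at 60 against 12 days (SE 0.29, adjusted p = 0.001). Both of these Aard calls were lost with the spike-in scale (adjusted p = 0.24 and 0.613). Of the 17 Sertoli markers, 13 rose at 12 against 5 days. At 60 against 12 days 2 of them fell, 5 rose and 10 were not called. Patterns like those of Cst3 (Apba2 at 0.985, Bex3 at 0.968 and Pnldc1 at 0.959) were met in 8 genes above 0.95. Cstb was followed most closely by Or4c103 (0.982), Prss8 (0.978) and Trerf1 (0.975), with 41 genes above 0.95, and Tceanc (0.946) was the closest to Cst6, with 0 genes above 0.95.

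Of 20 genes listed for the proteases that cystatins inhibit (2 of the names being the related tubulointerstitial nephritis antigens), 17 were on the array and 11 were tested. At 12 against 5 days 0 rose and 5 fell (all genes: 6.16% and 6.33%), at 60 against 12 days 3 rose and 2 fell (12.3% and 13.1%), and at 60 against 5 days 0 rose and 2 fell (17.3% and 18.1%). With replicate number as a block the counts were 1 and 5, 5 and 2, and 1 and 2. The median log2 fold change of the 11 was -0.80, 0.45 and -0.05. Ctsc, the dipeptidyl peptidase cathepsin C, had mean levels of 1.56 ± 0.55 at 5 days, -0.55 ± 0.39 at 12 days and -3.30 ± 1.18 at 60 days (SD, n = 3 each), and fell by 4.85 at 60 against 5 days (SE 0.55, limma adjusted p = 5.2e-05). That call held in all 21 alternatives.

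Ctsf (cathepsin F) fell by 1.06 at 60 against 5 days (SE 0.34, limma adjusted p = 0.0305), a call lost in 12 of 22 alternatives, with adjusted p up to 0.305. The brightest genes of the list, Ctsb and Ctsl, which encode the abundant lysosomal cathepsins B and L, were not called in any comparison, and each probe was saturated on 1 array, which limits what its differences show. At 60 against 5 days Ctsb differed by 0.05 ± 0.35 (adjusted p = 0.928) and Ctsl by 0.23 ± 0.46 (adjusted p = 0.741). The genes that fell at 12 against 5 days were Ctsc, Ctsf, Ctsh, Ctsk and Ctss, and those that rose at 60 against 12 days were Ctsh, Ctsk and Lgmn (legumain), named after their values were seen. Ctsh had the least stable of these calls, lost in 16 of 22 alternatives at 12 against 5 days. Of 12 macrophage markers, 8 fell and 0 rose at 12 against 5 days, with a summed level of 2.51 to 2.96 at 12 days, against 7.65 to 12.8 at 5 days. In the same comparison 5 of 5 tested epididymal and duct markers and 4 of 10 peritubular and fibroblast markers fell, and 0 of either rose. The part of any of these cells in the protease results was not tested.

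**Figure D4:**
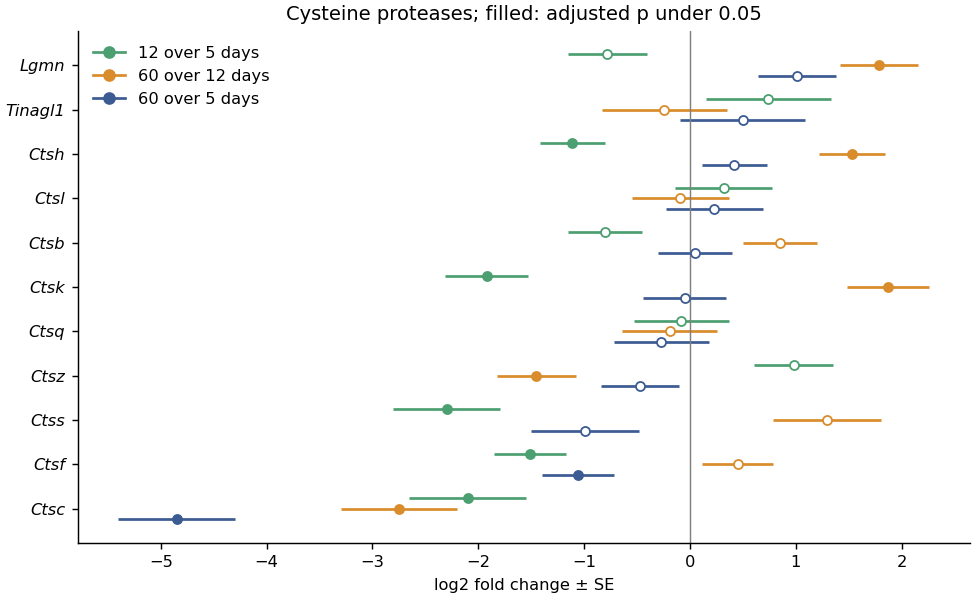
Log2 fold changes (± SE) of the 11 tested cysteine protease genes and relatives between ages, filled where the adjusted p was under 0.05. Ctsc has the lowest value, -4.85 at 60 against 5 days, and Ctsk and Ctsh have filled points below zero at 12 against 5 days and above zero at 60 against 12 days.

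Of 7 tested lysosomal proteases of other classes, which cystatins do not inhibit, 0 rose and 2 fell at 12 against 5 days (all genes: 6.16% and 6.33%). At 60 against 12 days 2 rose and 0 fell (12.3% and 13.1%), and at 60 against 5 days 1 rose and 3 fell (17.3% and 18.1%). At 60 against 5 days Scpep1, a serine carboxypeptidase, fell by 1.86 (SE 0.33, limma adjusted p = 0.00124), and Tpp1, tripeptidyl peptidase, rose by 1.67 ± 0.48 (adjusted p = 0.0182). The falls of Prcp (1.34, SE 0.46, adjusted p = 0.0428) and Napsa (1.33, SE 0.43, adjusted p = 0.0319) completed the count, written as sizes of log2 decreases. Of the alternatives run, 7 ended the call on Tpp1, 14 that on Prcp, 11 that on Napsa and 2 that on Scpep1, and with the spike-in scale 0 of the 7 genes were called at 60 against 5 days.

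Among 26 further cystatin superfamily genes listed, 15 were on the array and 4 were tested, Cstdc1 among them. At 12 against 5 days 1 rose and 2 fell (all genes: 6.16% and 6.33%). At 60 against 12 days 2 rose and 0 fell (12.3% and 13.1%), and at 60 against 5 days 2 rose and 2 fell (17.3% and 18.1%). Kininogens, the circulating precursors of kinins that carry cystatin domains, were above background at 5 days alone. Kng2 was at least 140-fold lower at 60 than at 5 days (limma adjusted p = 3.97e-07), and Kng1 was lower too (adjusted p = 3.97e-07). They are related genes, and whether the probes tell them apart was not tested. Ahsg, the plasma protein fetuin-A, was at least 2.47-fold higher at 60 than at 5 days (adjusted p = 0.000458), a call lost in the normexp and quantile setting on replicates 1 and 3 (adjusted p = 0.188).

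Of 14 tested genes listed as other protease inhibitors of the testis, 1 rose and 3 fell at 12 against 5 days (all genes: 6.16% and 6.33%). At 60 against 12 days 4 rose and 3 fell (12.3% and 13.1%), and at 60 against 5 days 3 rose and 5 fell (17.3% and 18.1%). Serpina5, the protein C inhibitor, was at least 83.1-fold higher at 60 than at 5 days (limma adjusted p = 1.94e-06). Serping1, the C1 inhibitor of complement, fell by 5.26 (SE 0.38, adjusted p = 2.8e-06), and Serpine2, protease nexin-1, fell by 3.48 (SE 0.32, adjusted p = 1.18e-05) at 60 against 5 days. Slpi, a secreted inhibitor of leukocyte elastase, rose by 3.17 ± 0.54 in that comparison (adjusted p = 0.000893), with mean levels of -0.60 ± 0.41 at 5 days, -3.81 ± 1.24 at 12 days and 2.57 ± 0.20 at 60 days (SD, n = 3 each). These 4 calls held in every alternative run.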

How the data were processed

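Per the file headers, spots were quantified with Agilent Feature Extraction 9.5.3.1 (replicate 1) or 10.5.1.1 (replicates 2 and 3), and the deposited intensity values had local background removed within each array. The authors' deposited log2 table holds the log2 processed signal less each array's 75th percentile, to within 0.01 in 99.637% to 99.72% of probes. From the scans, repeated spots were averaged, 254 probes with a quality failure were left out, and each array's log2 75th percentile was subtracted. The filter asked for signal well above background on 2 or more of the 3 arrays of some age and left 26599 probes. Each of 22397 genes was represented by its brightest probe.

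limma 3.58.1 in R 4.3.3 fitted a mean per age to all 9 arrays (6 residual and 4.638 prior degrees of freedom), with 2-sided tests and Benjamini-Hochberg adjustment over all genes. A gene not well above background at one age has a bound ("at least"), set from the lowest signal well above background on each array. Spike-in scaling used 6 of 10 control probes, those measured on every array. The steps were tested on simulated data. Tables and plots were made with Python 3.11.15.

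The members and lists were chosen with earlier results of these data known. By rule all 7 members were named, up to 4 genes per list (largest called change at 60 against 5 days, then the brightest) and the 3 genes most like each member, except that for Cst6 only the closest is reported here. Each replicate number is one slide. After removal of the age means, arrays correlated at 0.182 to 0.601 within a number and at most at 0.093 between numbers. Arrays of one number were thus alike beyond age. Replicate 1 was scanned on a G2505B scanner and replicates 2 and 3 on G2505C, and the source of the likeness was not tested. The main fit did not use the pairing. With replicate number as a block 3967 genes were called at 12 against 5 days, against 2796 in the main fit. Names came from RefSeq tables.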

Additional observations from a re-analysis of the deposited data

How the results depend on the processing

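The counts of cystatins called (3 at 12 against 5 days, 3 at 60 against 12 days, 6 at 60 against 5 days and 4 over the 3 ages) depended on the scale and the filter. Scaled to the spike-in controls, they were 0, 2, 2 and 2 of 6. With probes well above background on all 9 arrays, where 3 cystatins were tested, they were 1, 1, 3 and 2. With normexp and quantile normalization on replicates 1 and 3 alone they were 0 at 12 against 5 days and 2 at 60 against 5 days. Leaving out an array or a replicate number gave 2 to 3, 2 to 3, 2 to 6 and 3 to 4. With the replicate number as a block, in which the numbers pair the arrays, the counts were 3, 3, 6 and 5, Cst6 being the one added. Single values that changed sign did so with the spike-in scale, none of them called: Cst3 (-0.73) and Cst6 (-0.23) at 12 against 5 days, and Cstb (0.65) at 60 against 12 days. That scale moved the median of all genes to -1.27, 0.80 and -0.45 (0.05, -0.16 and -0.09 before), and called 90 genes higher and 2193 lower at 12 against 5 days, 2612 and 380 at 60 against 12 days, and 1630 and 2448 at 60 against 5 days (1379 and 1417, 2748 and 2926, and 3880 and 4049 before). The spike-in median lay above the log2 75th percentile by 2.501, 4.687 and 3.634 at 5, 12 and 60 days in replicate 1. In replicate 3 it lay above by 3.372, 5.131 and 3.597, and in replicate 2 by 2.721, 2.735 and 2.444. The replicates thus disagreed on the shift at 12 days, which adds spread on that scale. The 2796 genes called at 12 against 5 days were 1537 with probes well above background on all arrays, 411 with normexp and quantile normalization on replicates 1 and 3 alone, and 846 to 1549 without a replicate number. The 5674 genes at 60 against 12 days were 3244, 1534 and 2768 to 4368, and the 7929 at 60 against 5 days were 4478, 3111 and 4912 to 6373. The lowest of each range, 846, 2768 and 4912, was without replicate 2, which the normexp setting leaves out too. The cause of these changes was not tested. Cst6 and the 5-day signals of Cst9l and Cst12 were close to background, which limits the precision of their fold changes.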
